A study of Mus musculus with 2 samples.

Results

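Mir148a, Mir148b and Mir152 are 3 microRNA genes at separate loci whose main products carry the same seed, the stretch of a microRNA that pairs with its target messages. They were taken by their GENCODE gene names from tables that list 1973 microRNA genes, and all 3 were found once, so the family makes up 3 of 1973 genes. The libraries were made from forebrain of healthy mouse embryos of strain B6NCrl at embryonic day 13.5, with male and female tissue pooled and RNA limited to under 30 nucleotides. There was 1 group with 2 libraries, called biological replicates 2 and 1 in the labels, no treated or mutant group, and nothing that sets the libraries apart by condition. They carry separate biosample identifiers and a common donor identifier, so the spread between them is the spread of these libraries and may in part be technical.

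A microRNA is cut from a hairpin precursor, and 1 or both arms of the hairpin are loaded into Argonaute proteins, which it guides to messages with matching sites. Members of a family with a common seed can act on overlapping sets of messages. The miR-148/152 family is best known from human cells for acting on messages of DNA methyltransferases, among them DNMT1 and DNMT3B, and from mouse for work of miR-148a in liver lipid metabolism and in B cells. The intronic members lie in genes for the zeta subunit of the COPI coat, which carries vesicles between Golgi and endoplasmic reticulum.

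The mature 3p microRNAs are shown because they define the family. They were read from RefSeq (build GRCm38.p6), where all 3 genes matched, and are printed 5′ to 3′ with the seed, bases 2 to 8, in capitals.
miR-148a-3p: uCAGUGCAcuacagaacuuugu
miR-148b-3p: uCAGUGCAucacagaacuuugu
miR-152-3p: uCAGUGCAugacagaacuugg
The first 2 of these are 22 nucleotides long and miR-152-3p is 21. Counted from base 1 at the 5′ end, miR-148b-3p differs from miR-148a-3p by C9U and U10C, and miR-152-3p differs from miR-148a-3p by C9U, U10G and U20G. Between miR-148b-3p and miR-152-3p the differences are C10G and U20G. No difference falls in the seed. Of 1738 mature mouse microRNAs in the RefSeq table, 3 (0.173%) have these letters at bases 2 to 8, and they are the 3 named here.

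The hairpins are shown because the tables count reads per gene, so that reads of both arms are in 1 number. Capitals mark the mature arms, with the 5p arm first.
Mir148a hairpin: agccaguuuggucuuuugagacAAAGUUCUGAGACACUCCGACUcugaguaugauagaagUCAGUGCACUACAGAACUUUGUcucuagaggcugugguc
Mir148b hairpin: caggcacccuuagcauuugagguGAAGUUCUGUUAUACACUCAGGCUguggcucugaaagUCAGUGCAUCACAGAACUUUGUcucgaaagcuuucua
Mir152 hairpin: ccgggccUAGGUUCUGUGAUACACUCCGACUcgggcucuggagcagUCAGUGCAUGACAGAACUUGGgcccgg
The 5p arms of Mir148a and Mir148b agree at bases 2 to 8 and that of Mir152 differs from both there by A3G. How the counts divide between the arms was not measured. Each of the 6 mature arms matched transcripts of its own gene and of no other gene in GENCODE M21, and no member shared a stretch of 20 nucleotides with another annotated microRNA transcript. This search covered annotated transcripts and not the genome.

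Mir148a (ENSMUSG00000065505.1) lies on the minus strand of chromosome 6 at 51269812 to 51269910 (mm10, GENCODE M21), outside any other annotated gene. Mir148b (ENSMUSG00000065560.1) lies on the plus strand of chromosome 15 at 103285125 to 103285221, in an intron of Copz1 in all 4 overlapping transcripts. Mir152 (ENSMUSG00000065515.1) lies on the plus strand of chromosome 11 at 96850393 to 96850465, in an intron of Copz2 in all 3 overlapping transcripts and 523 bases past the start of that gene. Both intronic members are on the strand of their host. The loci have neighbours of like kind, which the choice of members did not use. Host genes aside, the nearest protein-coding gene on 1 side of each member belonged to the Nfe2 family of transcription factors. These were Nfe2l3 at 163 kb from Mir148a, Nfe2 at 26.7 kb from Mir148b and Nfe2l1 at 20.4 kb from Mir152. M21 holds 4 genes of that family in all. On the other side the nearest were Npvf for Mir148a, Gpr84 for Mir148b and Cdk5rap3 for Mir152. Gpr84, at 23014 bases from Mir148b, was nearer to it than Nfe2. The nearest other microRNA gene of the tables was Gm22914 for Mir148a and Mir6963 for Mir148b, each with 0 counts in both libraries, and Mir8103 for Mir152, with 5 counts in replicate 2 and 7 in replicate 1.

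All 3 genes were expressed in E13.5 forebrain at low to middling levels. Mir148b was the most abundant, with 900 counts in replicate 2 and 835 in replicate 1. Mir148a had 641 counts in replicate 2 and 662 in replicate 1. Mir152 had 93 counts in replicate 2 and 72 in replicate 1. Mir148b was thus highest and Mir152 lowest in both libraries, and no 2 members overlapped. Reads on the opposite strand numbered 0 at each member in both libraries, against a limit of 3 counts, or 0.767 CPM in replicate 2 and 0.729 CPM in replicate 1, that a count of 0 allows.

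CPM values, counts relative to 1000000 counts on microRNA genes, place the libraries on 1 scale. They compare reads. No length scaling was applied. The mature 3p forms are 21 or 22 nucleotides long and the 5p forms 22 or 24. How evenly different microRNAs were captured was not measured. Mir148b averaged 217 ± 19.4 CPM (SD, n = 2 libraries), at 230 CPM in replicate 2 (216 to 246, the 95% Wilson interval) and 203 in replicate 1 (189 to 217). Mir148a averaged 162 ± 2.27 CPM, at 164 in replicate 2 (152 to 177) and 161 in replicate 1 (149 to 173). Mir152 averaged 20.6 ± 4.46 CPM, at 23.8 in replicate 2 (19.4 to 29.1) and 17.5 in replicate 1 (13.9 to 22.0). The spread of Mir148a was below the median of detected genes and that of Mir152 above it, with coefficients of variation of 1.40% for Mir148a, 8.97% for Mir148b and 21.6% for Mir152 against a median of 9.50%. Counting error alone would give an SD of 6.36 CPM for Mir148a, 7.35 CPM for Mir148b and 2.27 CPM for Mir152. The measured SD was under this value for Mir148a and over it for Mir148b and Mir152. All these spreads are of CPM on library totals. With TMM library sizes the SD of Mir148a was 11.2 CPM, so its small spread depends on the scaling.

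**Figure D1:**
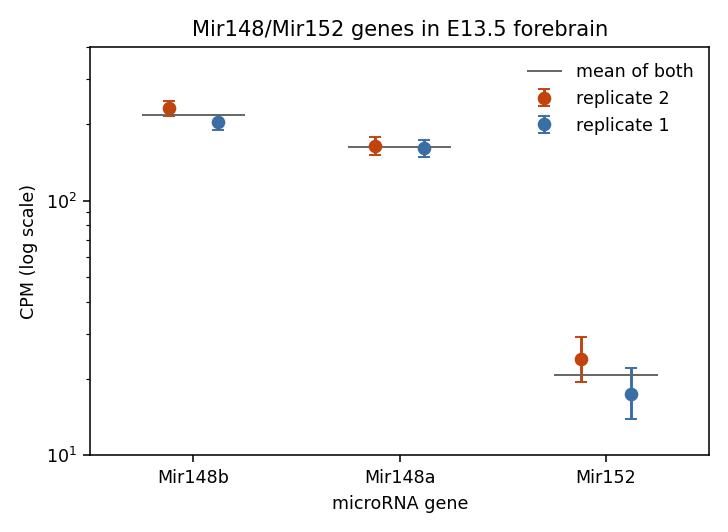
CPM on a log axis for Mir148b, Mir148a and Mir152 in replicate 2 (left point) and replicate 1 (right point), with 95% Wilson intervals as bars and the mean of both as a grey line. Mir148b lies between 203 and 230 CPM, above Mir148a at 161 to 164 CPM, and Mir152 lies between 17.5 and 23.8 CPM.

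Fold differences between members can be taken within a library, where they need no scaling. Mir148a had 0.712 times the counts of Mir148b in replicate 2 (exact 95% interval 0.643 to 0.789) and 0.793 times in replicate 1 (0.715 to 0.879), or 0.753 ± 0.0570 (SD, n = 2). The gap of Mir148a minus Mir148b was -66.3 CPM in replicate 2 and -42.0 CPM in replicate 1, each larger in size than the SD of either gene. Mir148a stood 6.89-fold over Mir152 in replicate 2 (5.54 to 8.66) and 9.19-fold in replicate 1 (7.20 to 11.9), a mean of 8.04 ± 1.63. Mir148b stood 9.68-fold over Mir152 in replicate 2 (7.81 to 12.1) and 11.6-fold in replicate 1 (9.11 to 15.0), a mean of 10.6 ± 1.36. The intervals of the libraries overlapped for each of the 3 pairs. With 2 libraries no permutation test of the order can reach a p under 0.05, and none was made.

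Together the members held 1634 counts in replicate 2, which was 0.0418% of gene counts (0.0398 to 0.0439 by Wilson's method), and 1569 counts in replicate 1, or 0.0381% (0.0363 to 0.0400). The mean share was 0.0400% ± 0.00261. Mir148b made up 55.1% of the family's counts in replicate 2 (52.7 to 57.5) and 53.2% in replicate 1 (50.7 to 55.7). Mir148a made up 39.2% in replicate 2 (36.9 to 41.6) and 42.2% in replicate 1 (39.8 to 44.7). Mir152 made up 5.69% in replicate 2 (4.67 to 6.92) and 4.59% in replicate 1 (3.66 to 5.74). The intervals of the libraries overlapped for each member, and a change in the makeup of the family was not tested. Relative to all reads of the library, multi-mapped and unmapped ones included, the family's mean share was 0.0152%. In bulk tissue fewer cells that express a gene and less RNA per cell cannot be told apart.

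Genes that reached 10 counts in both libraries were called detected, and among these 377 Mir148b ranked 165, Mir148a 181 and Mir152 281 by mean CPM. Of the detected genes 56.2% lay below Mir148b, 52.0% below Mir148a and 25.5% below Mir152. Mir148b and Mir148a stood above the median detected gene, which had 137 CPM, and Mir152 below it. The ranks moved little between libraries, with Mir148b at 158 in replicate 2 and 170 in replicate 1, Mir148a at 178 and 183 in the same order, and Mir152 at 268 and 285. Multi-mapped reads were taken to count for no gene, so genes with copies may rank too low in this order.

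**Figure D2:**
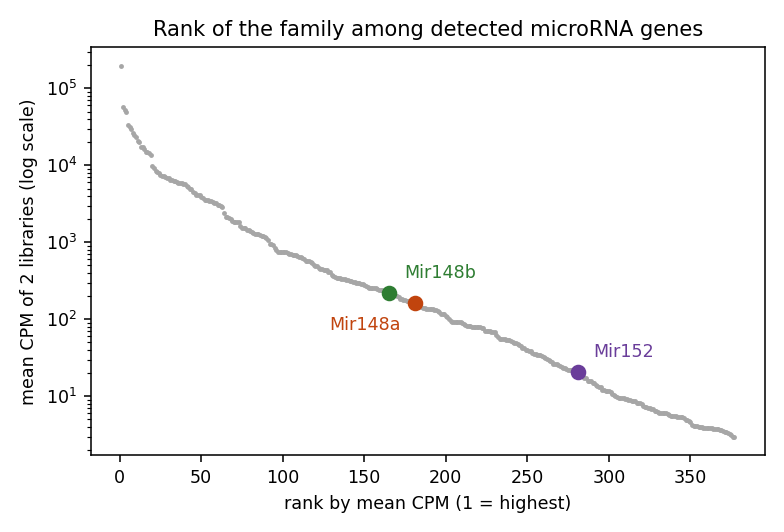
Mean CPM of 2 libraries (log axis) against rank for the 377 detected microRNA genes, shown as grey points, with the 3 members in colour. Mir148b (rank 165) and Mir148a (rank 181) lie near the middle of the curve and Mir152 (rank 281) in its lower part.

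The genes next to each member in level, 2 above and 2 below by mean CPM over the 2 libraries, give a sense of scale. Around Mir148b these were Mir301b at 228 ± 6.57 CPM and Mir455 at 220 ± 16.4 CPM above, and Mir10a at 216 ± 66.0 CPM and Mir29a at 211 ± 23.1 CPM below. All 4 lay within the SD of Mir148b, at absolute log2 differences of 0.08, 0.03, 0.0013 and 0.03. Around Mir148a they were Mirlet7a-1 at 169 ± 4.44 CPM and Mir155, a microRNA of activated immune cells, at 163 ± 9.33 CPM above, and Mir331 at 154 ± 15.0 CPM and Mir29c at 150.0 ± 1.53 CPM below. Mir155 and Mir331 could not be set apart from Mir148a by their spread. Mirlet7a-1 and Mir29c, which both have copies elsewhere, did not overlap the range of Mir148a in CPM on library totals. That range widens with TMM library sizes, where the SD of Mir148a was 11.2 CPM, so this separation depends on the scaling. Around Mir152 were Mir34b at 21.4 ± 7.49 CPM, Mir466n at 21.4 ± 2.03 CPM, Mir1930 at 19.5 ± 1.07 CPM and Mir5113 at 19.3 ± 0.887 CPM, all within the SD of Mir152, and of these Mir466n has a copy. Over all detected genes, 13 had a range of 2 libraries that overlapped that of Mir148b, 8 that of Mir148a and 20 that of Mir152. These overlaps were counted in CPM on library totals only.

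The libraries were set against each other gene by gene, which compares these libraries and not conditions. The ratio, in log2, divides replicate 2 by replicate 1 once TMM scaling has been applied, and the two-sided exact binomial test covers counting error only. All 3 members had ratios above 0 under TMM, library totals and DESeq2 size factors. Mir148b, with 900 counts in replicate 2 against 835 in replicate 1, had a log2 ratio of 0.30 (exact 95% interval 0.16 to 0.43, exact binomial adjusted p = 8.87e-05). Mir152, with 93 counts against 72, had a log2 ratio of 0.55 (0.10 to 1.02, exact binomial adjusted p = 0.0401). Mir148a, with 641 counts in replicate 2, the smaller library, against 662 in replicate 1, had a log2 ratio of 0.14 (-0.02 to 0.30, exact binomial adjusted p = 0.162) and did not pass. Thus 2 of 3 members were higher in replicate 2 at an adjusted p under 0.05 over 475 genes tested, and the share of all tested genes called in either direction was 38.5%, with 18.1% called higher and 20.4% lower. With 3 genes that count shows nothing particular to the family. None of the 3 members had an absolute log2 ratio over 1, a size that 3.37% of tested genes reached with an adjusted p under 0.05.

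The size of these ratios lay within what other genes showed. Of the 377 detected genes, 115 (30.5%) had a higher ratio than Mir148a, 58 (15.4%) a higher one than Mir148b and 16 (4.24%) a higher one than Mir152. The median log2 ratio of detected genes was 0.03 under TMM. Library totals moved every ratio by -0.11 and the median to -0.08. They also moved the split of calls over all genes, which was 86 higher and 97 lower under TMM, to 54 higher and 141 lower. With library totals Mir148b passed at a log2 ratio of 0.18 (exact binomial adjusted p = 0.0225), and Mir152 did not at 0.44 (exact binomial adjusted p = 0.112). An edgeR exact test with a common dispersion, a biological coefficient of variation of 14.3% estimated from these same libraries, called none of the members. Its unadjusted p was 0.328 for Mir148b, 0.141 for Mir152 and 0.645 for Mir148a.

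**Figure D3:**
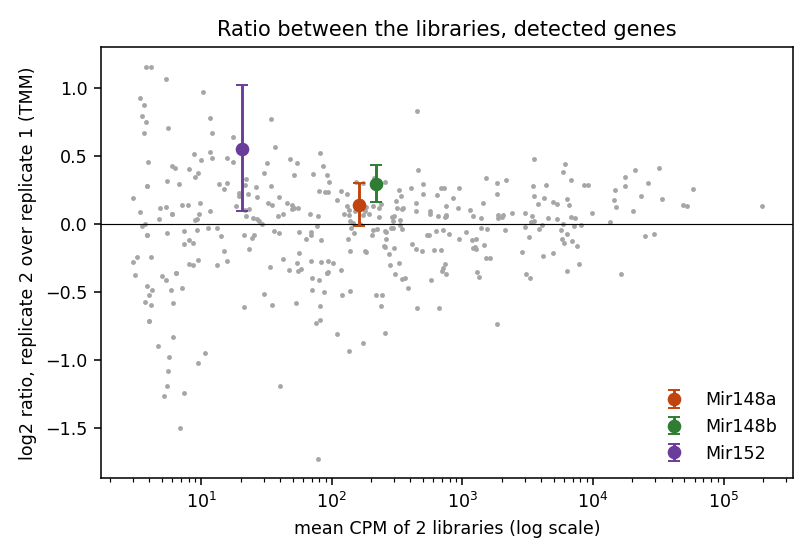
Log2 ratio of replicate 2 over replicate 1 after TMM against mean CPM (log axis) for the 377 detected genes, as grey points, with the 3 members in colour and exact 95% intervals as bars. The members lie at 0.14 (Mir148a), 0.30 (Mir148b) and 0.55 (Mir152), and the interval of Mir148a alone among them crosses 0.

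Lists of other cell types were followed beside this difference, since miR-148a is also known from liver and B cells. The neural list, with 8 of 10 measured genes detected and led by Mir92b, held 2.35% of gene counts in replicate 2 and 2.72% in replicate 1. Its genes of miR-124, the microRNA that marks neurons, had few counts, at 19 and 20 at most (Mir124a-2), and have copies. The blood and microglia list, with 4 of 4 detected and led by Mir155, held 0.0335% in replicate 2 and 0.0409% in replicate 1. That sum followed Mir451a, with 134 counts in replicate 2 against 507 in replicate 1, while the list's median log2 ratio was 0.15, with 2 genes called higher and 1 lower. The liver list, with 2 of 2 detected, held 0.0146% in replicate 2 and 0.0145% in replicate 1. Endothelial Mir126a held 1.88% in replicate 2 and 1.60% in replicate 1. The mesenchymal and mural list, with 5 of 6 detected, held 0.709% in replicate 2 and 0.664% in replicate 1, and the choroid plexus and multiciliated list, with 4 of 4 detected, held 0.698% and 0.977% in that order. No listed gene was at 0 in both libraries, and Mir199a-1 had 0 counts in replicate 2 and 7 in replicate 1. The summed endothelial and mesenchymal shares were higher in replicate 2, as Mir148b and Mir152 were, and their part in that difference was not tested. Within the mesenchymal list the sum followed Mir143, with 15517 counts in replicate 2 against 12687 in replicate 1, while Mir214 had 693 against 1376, and the list's median log2 ratio was -0.02 with 1 gene called higher and 1 lower. Mir9-1 and Mir142 were not analysed here.

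Other microRNAs have the letters of the family's seed at another place. The 3p forms of Mir130a, Mir130b and Mir301 start with them, at bases 1 to 7, so that their own seed is offset by 1 base. The 3p form of Mir301b was not compared. They are printed with those 7 letters in capitals.
miR-148b-3p: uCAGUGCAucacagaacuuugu
miR-130a-3p: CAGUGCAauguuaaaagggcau
miR-130b-3p: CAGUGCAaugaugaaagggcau
miR-301a-3p: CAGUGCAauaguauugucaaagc
The letters stand at bases 1 to 7 in 7 mature microRNAs of RefSeq. Of these, Mir130a, Mir130b and Mir301 had counts, while Mir130c, Mir6341 and Mir6389 had 0 in both libraries. The remaining one, miR-721, matched no measured gene. The shared letters are a description of the sequences, and binding of targets was not measured.

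The Mir148/Mir152 family was far less abundant than the Mir130/Mir301 family, whose members are associated with proliferation and vascular growth. Against the 0.0418% of gene counts in replicate 2 and 0.0381% in replicate 1 that Mir148/Mir152 held, Mir130/Mir301 held 4.80% in replicate 2 and 4.54% in replicate 1. The share of Mir130/Mir301 divided by that of Mir148/Mir152 was 117 ± 3.02 (SD, n = 2). Mir130a led the larger family at 33916 ± 1242 CPM, followed by Mir130b at 9157 ± 778 CPM and Mir301 at 3365 ± 165 CPM. Mir148b, at 217 ± 19.4 CPM, differed from the lowest of the 4 compared genes of that family, Mir301b at 228 ± 6.57 CPM, by less than its own SD. Within Mir148/Mir152 the highest gene exceeded the lowest 9.68-fold in replicate 2 and 11.6-fold in replicate 1, against 155-fold and 142-fold in that order among those 4 genes of Mir130/Mir301, all detected. Mir130c, with 0 counts in both libraries, was not on the list compared and is outside this range. Between the libraries 2 of these 4 genes were called higher in replicate 2 and 0 lower under TMM, where 18.1% of all tested genes were called higher and 20.4% lower. With library totals Mir301 was called lower, and the edgeR exact test called 0 of the 4. With 4 genes these counts show nothing particular to Mir130/Mir301.

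Mir26 and Mir103/Mir107, families spread over host introns, were compared in the same way. The share of Mir26, in introns of Ctdsp genes, was 1.85% in replicate 2 and 1.65% in replicate 1, and divided by that of Mir148/Mir152 it came to 43.8 ± 0.656. The share of Mir103/Mir107, in introns of Pank genes, was 0.242% in replicate 2 and 0.249% in replicate 1, and the same division gave 6.16 ± 0.526. The leading member of Mir148/Mir152, Mir148b, made up 55.1% of its family's counts in replicate 2 and 53.2% in replicate 1. In Mir130/Mir301 the leading gene, Mir130a, made up 72.5% in replicate 2 and 72.8% in replicate 1. In Mir26 and Mir103/Mir107 a single gene made up nearly all counts, with Mir26b at 99.7% in replicate 2 and 99.8% in replicate 1, and Mir107 at 97.3% in replicate 2 and 96.8% in replicate 1. Copies differ between these families as well. Of Mir148/Mir152, 0 of 3 genes share a stretch with another microRNA transcript, against 0 of the 4 compared genes of Mir130/Mir301, 2 of 3 of Mir26 and 3 of 3 of Mir103/Mir107, and genes that do may lose multi-mapped reads. Their part in the contrast was not tested.

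**Figure D4:**
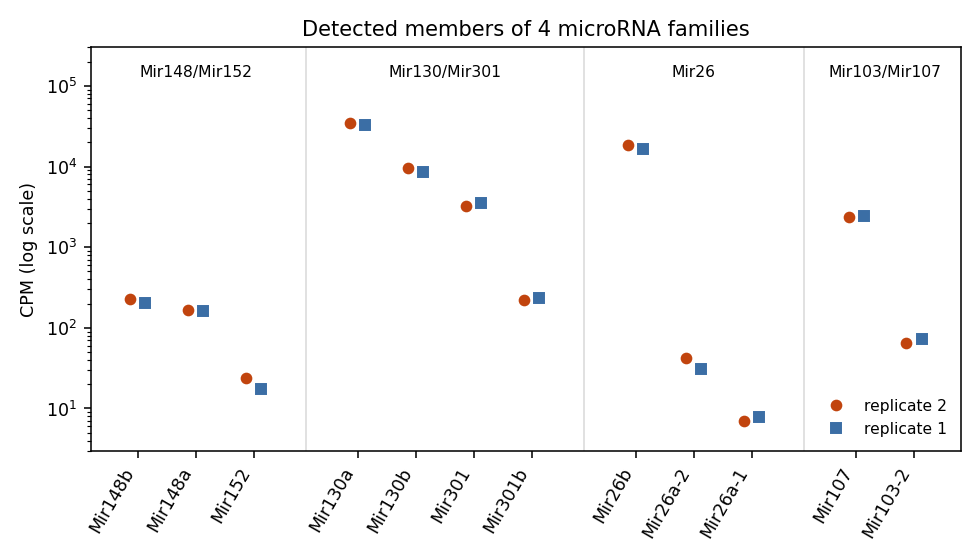
CPM on a log axis for the detected members of 4 families, with replicate 2 as circles (left) and replicate 1 as squares (right). The 3 members of Mir148/Mir152 span 17.5 to 230 CPM, and Mir130a, Mir130b, Mir301, Mir26b and Mir107 all lie above them.

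A list of 10 other microRNAs known, mostly from human cells, to act on DNA methyltransferase messages gives the setting of the family's best known role. All 10 were measured and 8 were detected, and together they held 3.28% of gene counts in replicate 2 and 3.03% in replicate 1. By mean CPM 6 of the 10 stood above Mir148b, 1 between Mir148a and Mir148b, 1 between Mir152 and Mir148a, and 2 below Mir152. Mir126a, an endothelial microRNA in Egfl7, led at 17435 ± 1970 CPM, followed by Mir342 at 7548 ± 1005 CPM and Mir143, of smooth muscle and mesenchyme, at 3525 ± 628 CPM. Mir101b stood at 1834 ± 95.8 CPM, Mir185 at 459 ± 63.0 CPM and Mir101a at 407 ± 30.8 CPM.

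The Mir29 genes, whose products act on DNMT3A and DNMT3B in human cells, were close in level to the family in 2 of 4 cases. Mir148b, at 217 ± 19.4 CPM, differed from Mir29a, at 211 ± 23.1 CPM, by less than the SD of either, and Mir29c stood at 150.0 ± 1.53 CPM. Mir29b-1 had 11 counts in replicate 2 and 7 in replicate 1, and Mir29b-2 had 6 in each, both below the level of Mir152, not detected and with copies elsewhere. Between the libraries 6 of the 10 were called higher in replicate 2 and 1 lower. The other 3 did not pass the exact binomial test. Of all tested genes 38.5% were called, 18.1% higher and 20.4% lower. Low-count genes passed this test less often. With the filter raised to 50 counts per library, 172 of 293 genes were called, 84 higher and 88 lower. Whether the list differs from other genes of like counts was not tested. The calls within the list numbered the same with library totals and DESeq2 size factors, while the edgeR exact test called 0 of the 10. The called genes were Mir126a, Mir143, Mir101b, Mir185, Mir101a and Mir29a on the higher side, at log2 ratios of 0.22 to 0.48, and Mir342 on the lower side at -0.16. The median log2 ratio of the list was 0.30 under TMM and 0.19 with library totals. Over the 377 detected genes it was 0.03 under TMM and -0.08 with library totals.

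**Figure D5:**
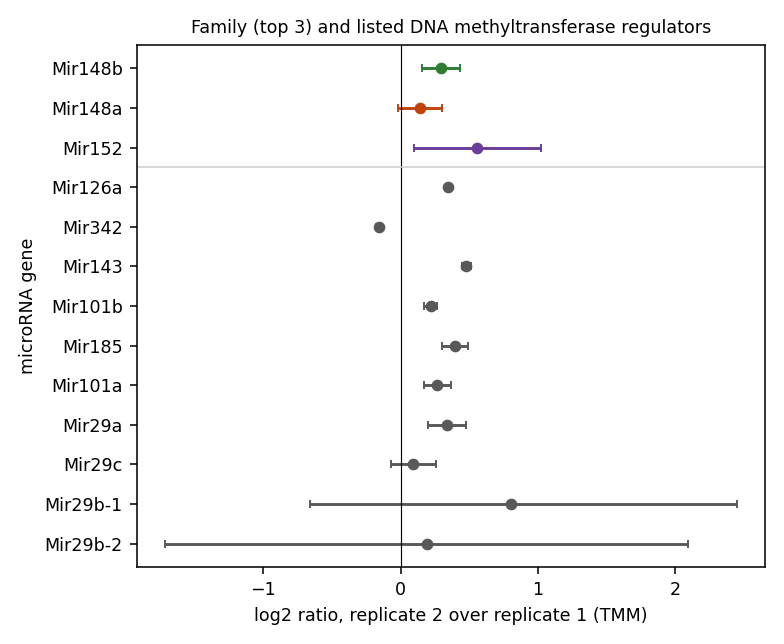
Log2 ratio of replicate 2 over replicate 1 after TMM for the 3 members (top) and 10 other microRNAs known to act on DNA methyltransferase messages, ordered by mean CPM, with exact 95% intervals as bars. Mir148b and Mir152 lie above 0 with 6 of the listed genes, Mir342 lies below 0 at -0.16, and the intervals of Mir148a, Mir29c, Mir29b-1 and Mir29b-2 cross 0.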

How the data were processed

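The deposited tables hold whole-number counts of reads per microRNA gene, 1 table per library, on mm10 and GENCODE M4 per the deposited read-me texts. No aligner or counter is named by those texts or the labels. The columns have no header and were taken, from the values, as reads on either strand, on the gene's strand and on the opposite strand. Counts on the gene's strand were used. Multi-mapped reads (43.9% in replicate 2, 40.6% in replicate 1), unmapped, unassigned and ambiguous reads stand in rows of their own, which were left out. This left 3908953 gene counts (37.4% of reads) in replicate 2 and 4117752 (38.7%) in replicate 1. Names and positions came from GENCODE M21, same build, which matched 1894 of 1973 identifiers, 79 not.

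CPM, shares and ratios (prior count 0.5) were computed here with Python 3.11.15 and scipy 1.17.1, and TMM, the common dispersion and size factors with edgeR 4.0.16 and DESeq2 1.42.0 in R 4.3.3. Genes with at least 10 counts over both libraries were tested by exact binomial test with Benjamini-Hochberg adjustment. A run on simulated libraries held counting error only, the model that the test assumes. It therefore cannot show how the test behaves on these libraries, which differ by more than counting error. The libraries were not copies of each other (chi-square 32540 on 376 degrees of freedom). Intervals cover counting error of reads only, and may be too narrow, since PCR reads are not independent molecules. Named genes were the members, the 2 genes next above and below each in mean CPM, all genes of the lists, the leading marker genes and genes with the same seed. Others were named after their values were seen. The members and lists were chosen with earlier results of these data known.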

Additional observations from a re-analysis of the deposited data

Results flagged for a closer look

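Reads on the strand opposite to a gene lie outside the main measurement, and their number was set against the 3 counts that a count of 0 allows. Of 23 measured genes in the families and the DNA methyltransferase list, 20 had 0 opposite-strand counts in both libraries, all 3 members of Mir148/Mir152 among them. Mir130a had 8 such counts in replicate 2 and 1 in replicate 1, beside 136007 and 136040 on its own strand in that order. Mir126a had 3 in replicate 2 and 4 in replicate 1, beside 73599 and 66058 on its own strand.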

How the results depend on the processing

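Of 56 recomputed values, 42 kept their direction, their side of the threshold or, where untested, stayed within the replicate SD, and 0 reversed. Some of the 42 could not come out otherwise. With 2 libraries, a level or fold from 1 library always lies within the SD of both. Folds with reads on either strand equal the main ones, because the members had 0 opposite-strand counts. Relative to all reads of the library, Mir148a stood at 61.8, Mir148b at 82.3 and Mir152 at 7.84 CPM, and the family at 0.0152%. With reads on either strand Mir148a stood at 159 CPM. The call of Mir152 was lost with library totals (log2 ratio 0.44, exact binomial adjusted p = 0.112), with DESeq2 size factors (0.53, adjusted p = 0.05003) and with no filter on low counts (0.55, adjusted p = 0.0601), and its adjusted p over all alternatives ran from 0.0271 to 1. Mir148b (0.30) and Mir152 (0.56) both lost their calls in the edgeR exact test, at an adjusted p of 1 each. That test called 1 of 475 genes, with 31 at an unadjusted p under 0.05, against 183 by the exact binomial test. Its dispersion comes from the difference between these same libraries. Without genes that have copies the ranks were 125 for Mir148b, 138 for Mir148a and 215 for Mir152 among 295 genes. With either library left out, levels and folds are the single-library values given above. No paired analysis was possible because there is 1 group. At 72 to 93 counts Mir152 is the member whose ratio is least well determined.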
